A study of Mus musculus with 6 samples.

Results

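The genes described are 10 integrin subunits, chosen by name as the subunits of fibroblast integrins: the alpha subunits Itga1, Itga3, Itga5, Itga6, Itga8, Itga11 and Itgav and the beta subunits Itgb1, Itgb3 and Itgb5. The choice was made with earlier results of these data known. All 10 were found among the 21988 gene symbols of the table, and all 10 were among the 13332 genes that had at least 1 TPM in at least 2 libraries and were tested. TPM is a transcript level scaled for transcript length and library, so levels of different genes can be set beside each other within a library. Which of 2 genes is the higher can still differ between libraries. The cells were mouse embryonic fibroblasts (MEFs) from C57BL/6 embryos, grown as serially passaged cultures with no transgene or drug named in the labels, and taken at population doubling (PD) 2, 8 and 14. Population doublings add up, over passages, the log2 of cells counted per cell seeded. Each of the 3 groups had 2 libraries, of which replicate 1 was strand-specific with ribosomal RNA removed (rRNA-depleted) and replicate 2 was enriched for poly(A) RNA. The labels name no separate cultures for the 2 libraries of a group. The p-values therefore measure only the spread of these 6 libraries left after group and library method are fitted, which may be technical.

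An integrin is a receptor made of 1 alpha and 1 beta subunit, both of which span the cell membrane. Outside the cell it holds the extracellular matrix, and inside it is linked through talin and kindlin to actin, so it both anchors the fibroblast and reports on the matrix. The alpha subunit largely sets the ligand. Alpha1 and alpha11 bind collagens, alpha3 and alpha6 bind laminins, and alpha5, alpha8 and alphaV bind proteins that carry the short RGD peptide, such as fibronectin. Beta1 pairs with all of these alpha subunits, while beta3 and beta5 pair with alphaV in fibroblasts.

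RefSeq promoter sequences (GRCm38.p6, 250 bases before to 50 bases after the start of a gene) were matched for 8 of the 10 genes, all but Itga6 and Itgb3. Those of the collagen receptor subunits Itga1 and Itga11 and of their common partner Itgb1 are printed because these 3 genes encode the collagen receptors alpha1beta1 and alpha11beta1, and Itga1 passed the test between PD14 and PD2 while the other two did not. Itga1 lies at chr13:115101915-115102214 on the minus strand, Itga11 at chr9:62677605-62677904 on the plus strand and Itgb1 at chr8:128685404-128685703 on the plus strand. Capitals mark matches to the GC box GGGCGG and to the TEAD motif GGAATG, each on either strand.
Itga1: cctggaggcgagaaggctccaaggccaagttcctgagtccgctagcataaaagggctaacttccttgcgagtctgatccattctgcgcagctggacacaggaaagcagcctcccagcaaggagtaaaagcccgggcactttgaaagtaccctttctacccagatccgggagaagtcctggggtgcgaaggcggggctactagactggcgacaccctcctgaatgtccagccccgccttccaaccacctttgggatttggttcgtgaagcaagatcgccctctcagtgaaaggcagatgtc
Itga11: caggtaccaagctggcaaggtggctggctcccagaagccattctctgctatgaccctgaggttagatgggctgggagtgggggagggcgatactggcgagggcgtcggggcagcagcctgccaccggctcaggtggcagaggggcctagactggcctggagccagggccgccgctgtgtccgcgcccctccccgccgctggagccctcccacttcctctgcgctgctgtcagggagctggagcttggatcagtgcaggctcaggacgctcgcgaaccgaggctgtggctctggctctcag
Itgb1: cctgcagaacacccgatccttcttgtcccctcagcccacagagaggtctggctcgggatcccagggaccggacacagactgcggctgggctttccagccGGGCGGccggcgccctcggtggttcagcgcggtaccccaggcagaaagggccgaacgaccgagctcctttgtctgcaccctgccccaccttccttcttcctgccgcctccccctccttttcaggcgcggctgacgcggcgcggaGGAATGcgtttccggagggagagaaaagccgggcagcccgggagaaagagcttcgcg
The Itgb1 window held 1 GC box and 1 TEAD motif, and the TEAD match began 7 bases before the start. The 5 motifs searched were the GC box (CCGCCC on the other strand), the TEAD motif (CATTCC on the other strand), the AP-1 motif TGANTCA, the TATA box TATAAA and the CArG box. No letters of these motifs were found in the Itga1 and Itga11 windows. Of 32851 promoters in the table, 35.7% held the GC box, 14.7% the TEAD motif, 7.81% the AP-1 motif, 13.6% the TATA box and 1.63% the CArG box. The windows differed in base composition, with 56.7% G and C in Itga1, 68.0% in Itga11 and 67.3% in Itgb1.

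Of the integrin genes, 3 passed the test between PD14 and PD2. Itga1 rose, and Itga6 and Itgb3 fell, in both kinds of library. The test was limma on log2(TPM + 1) with the library method as a block, and p-values were adjusted by the Benjamini-Hochberg method over all 13332 genes, with a threshold of 0.05. A log2 change on this scale understates the change of genes with low TPM. At that threshold 11.2% of all genes tested passed, 6.41% as higher and 4.77% as lower, against 3 of the 10 integrin genes, 1 higher and 2 lower. At an unadjusted p under 0.05 there were 4 of the 10, with Itgav the fourth, beside 32% of all genes. The 10 fitted changes had a median of -0.22, beside 0.06 over all genes tested. Without the block 0 of 10 integrin genes and 0 of all genes passed. Leaving out either PD8 or either PD14 library also left 0 of 10, although the 3 genes kept their signs in every such fit.

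**Figure D1:**
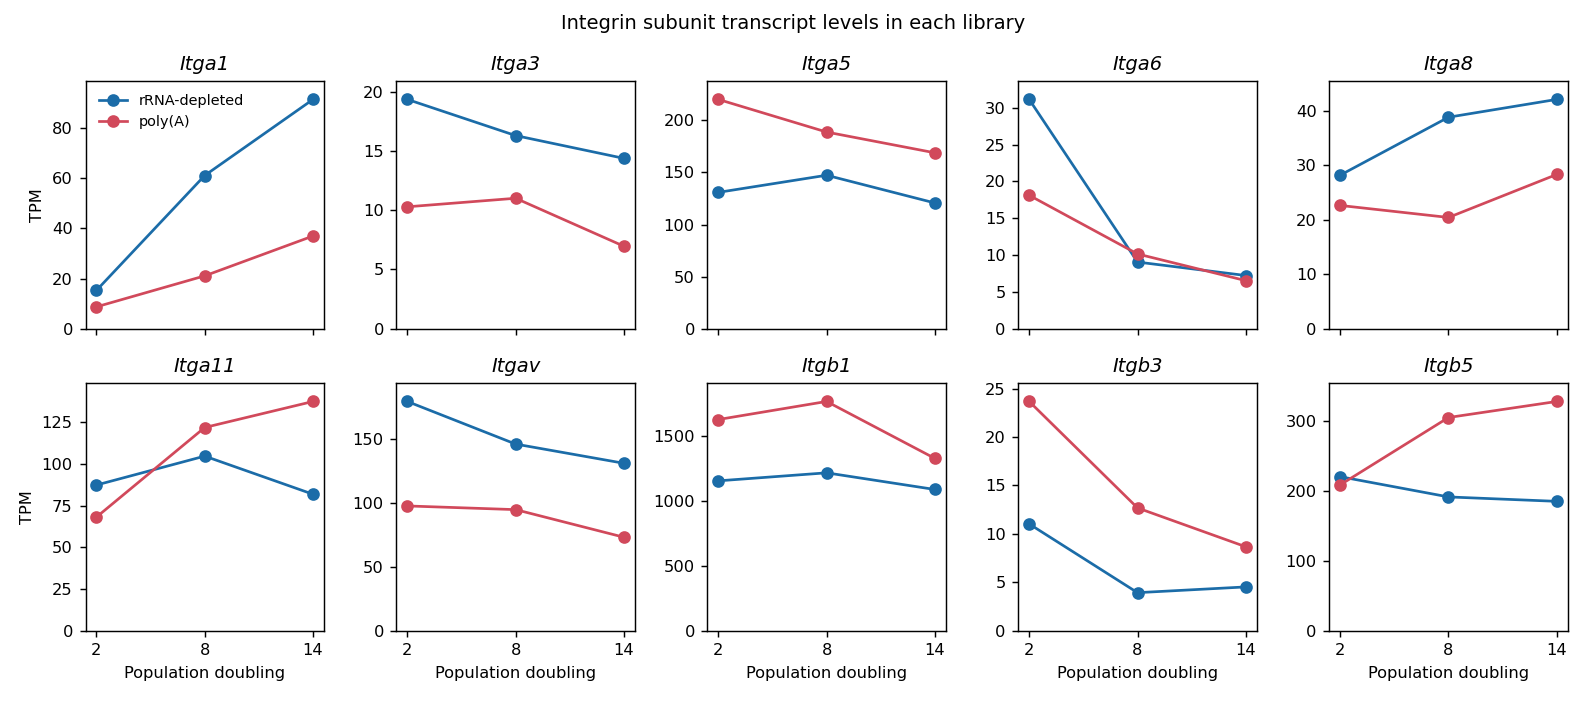
Level in TPM (vertical axes, from 0, with a scale for each gene) of the 10 integrin subunits at population doubling 2, 8 and 14 (horizontal axis), with 1 point per library and a line for each library method. Itga1 went up at each step in both methods, ending at 91.4 and 36.9 TPM, while Itga6 went down and ended at 7.22 and 6.52 TPM.

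Of the collagen receptor subunits, Itga1 encodes alpha1, which with beta1 binds mainly basement membrane collagen IV and fibrillar collagens. It lies on chromosome 13, 114953096 to 115101964, on mm10. At PD2, PD8 and PD14 it stood at 15.2, 61.0 and 91.4 TPM with rRNA depletion and at 8.71, 21.1 and 36.9 TPM with poly(A) enrichment. Both PD14 libraries and both PD8 libraries were above both PD2 libraries, while PD8 and PD14 overlapped. The PD14 level was 6.00 times that of PD2 by rRNA depletion and 4.24 times by poly(A) enrichment. The fitted log2 rise was 2.24 ± 0.22 (SE, n = 2 libraries per group; limma adjusted p = 0.0166). Of the 10 genes, Itga1 was also the one that passed the F test over all 3 doublings (limma adjusted p = 0.0415), which 1.46% of all genes tested did. Its exons share 685 bases with the predicted gene Gm49395 on the same strand, so a part of its reads cannot be assigned with certainty.

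Itga11 encodes alpha11, a receptor for fibrillar collagen on fibroblasts (chromosome 9, 62677826 to 62783982). At PD2, PD8 and PD14 it stood at 87.2, 105 and 81.7 TPM with rRNA depletion and at 68.0, 122 and 137 TPM with poly(A) enrichment. Both PD8 libraries were above both PD2 libraries, but PD14 was the lowest of the rRNA-depleted and the highest of the poly(A) libraries. The fitted PD14 change was 0.45 ± 0.26 (limma adjusted p = 0.293), while the PD14 TPM was 0.937 times that of PD2 by rRNA depletion and 2.02 times by poly(A) enrichment. It passed as higher when the PD2 rRNA-depleted library was left out (0.87, limma adjusted p = 0.0419). Within a library the ratio of Itga1 to Itga11 TPM was 0.175 at PD2, 0.584 at PD8 and 1.12 at PD14 by rRNA depletion, and 0.128, 0.173 and 0.269 by poly(A) enrichment. Itga1 thus reached the level of Itga11 in the PD14 rRNA-depleted library and stayed below it in the other 5.

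Of the laminin receptor subunits, Itga6 fell. It encodes alpha6, a receptor for laminins that pairs with beta1 or, in epithelia, with beta4 (chromosome 2, 71745616 to 71858416). At PD2, PD8 and PD14 it stood at 31.1, 9.05 and 7.22 TPM with rRNA depletion and at 18.1, 10.1 and 6.52 TPM with poly(A) enrichment. The 3 groups did not overlap: both PD2 libraries were highest and both PD14 libraries lowest. The fitted log2 change was -1.66 ± 0.27 (limma adjusted p = 0.0305). With no filter on low TPM it did not pass (limma adjusted p = 0.0644).

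Itga3 encodes alpha3, the other laminin receptor subunit of this set (chromosome 11, 95044474 to 95076801). With rRNA depletion its levels at the 3 doublings were 19.4, 16.3 and 14.4 TPM, and with poly(A) enrichment they were 10.3, 11.0 and 6.96 TPM. The PD14 library was the lowest of each method, but the groups overlapped. The fitted change from PD2 to PD14 was -0.45 ± 0.20 and did not pass (limma adjusted p = 0.191).

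No fitted change of an RGD-binding alpha subunit passed, and all were smaller in size than those of Itga1 and Itga6. Those of Itgav and Itga8 were close in size to those of Itga3 and Itga11. Itga5 encodes alpha5, which with beta1 is the main fibronectin receptor (chromosome 15, 103344286 to 103366763). Its levels over the 3 doublings were 131, 147 and 121 TPM with rRNA depletion, against 220, 189 and 169 TPM with poly(A) enrichment, and the groups overlapped. The fitted PD14 change was -0.25 ± 0.14 (limma adjusted p = 0.279). Itgav encodes alphaV, which binds vitronectin, fibronectin and latent TGF-beta and pairs with beta1, beta3 and beta5 (chromosome 2, 83724397 to 83806916). From PD2 through PD8 to PD14, rRNA depletion gave 179, 146 and 131 TPM and poly(A) enrichment 97.7, 94.8 and 73.2 TPM. The level was lower at each step in both methods, and the groups overlapped because the methods differed in level. The fitted change was -0.43 ± 0.12 (limma adjusted p = 0.0859). A stretch of 634 exonic bases of Itgav overlaps Gm13684 on the opposite strand.

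Itga8 encodes alpha8, a receptor for nephronectin found in mesenchymal and contractile cells (chromosome 2, 12106632 to 12301922). With rRNA depletion its levels at the 3 doublings were 28.2, 38.8 and 42.1 TPM, and with poly(A) enrichment they were 22.6, 20.4 and 28.3 TPM. Both PD14 libraries were above both PD2 libraries, by a margin of 28.3 against 28.2 TPM at the closest pair. The fitted change was 0.44 ± 0.19 (limma adjusted p = 0.185), and 372 exonic bases overlap E030013I19Rik on the opposite strand. Groups that did not overlap between PD14 and PD2 were thus found for Itga1 and Itga8 as higher and for Itga6 and Itgb3 as lower. Of all genes tested, 22.4% were higher without overlap and 15.8% lower. Between PD8 and PD2 the groups did not overlap for Itga1 and Itga11 as higher and for Itga6 as lower, beside 19.5% and 13.7% of all genes. Between PD14 and PD8 that held for Itga6 as lower (7.07% of all genes) and for 0 of the 10 as higher (8.12%).

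Of the beta subunits, Itgb3 fell. It encodes beta3, which with alphaV binds vitronectin and other RGD proteins (chromosome 11, 104608000 to 104670476). At PD2, PD8 and PD14 it stood at 11.0, 3.93 and 4.53 TPM with rRNA depletion and at 23.7, 12.7 and 8.67 TPM with poly(A) enrichment. Both PD14 libraries were below both PD2 libraries. The fitted log2 change was -1.24 ± 0.24 (limma adjusted p = 0.0400). Its call was the least firm of the 3: leaving out any 1 of the 6 libraries ended it, with changes from -1.46 to -1.01, as did the fit with no filter on low TPM (limma adjusted p = 0.0814).

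Itgb1 encodes beta1, the common partner (chromosome 8, 128685654 to 128733200). Its levels over the 3 doublings were 1152, 1214 and 1086 TPM with rRNA depletion, against 1623, 1762 and 1324 TPM with poly(A) enrichment. PD8 was the highest and PD14 the lowest of each method, and the groups overlapped. The fitted PD14 change was -0.19 ± 0.16 (limma adjusted p = 0.443). Itgb5 encodes beta5, a partner of alphaV in vitronectin binding (chromosome 16, 33829665 to 33949338). From PD2 through PD8 to PD14, rRNA depletion gave 220, 191 and 185 TPM and poly(A) enrichment 208, 305 and 327 TPM. The methods gave opposite signs, -0.25 and 0.65, and the fitted change of 0.20 ± 0.24 did not pass (limma adjusted p = 0.599). The ratio of Itgb5 to Itgb3 TPM was 20.0, 48.6 and 40.8 by rRNA depletion and 8.80, 24.0 and 37.8 by poly(A) enrichment, so it was lowest at PD2 in both.

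**Figure D2:**
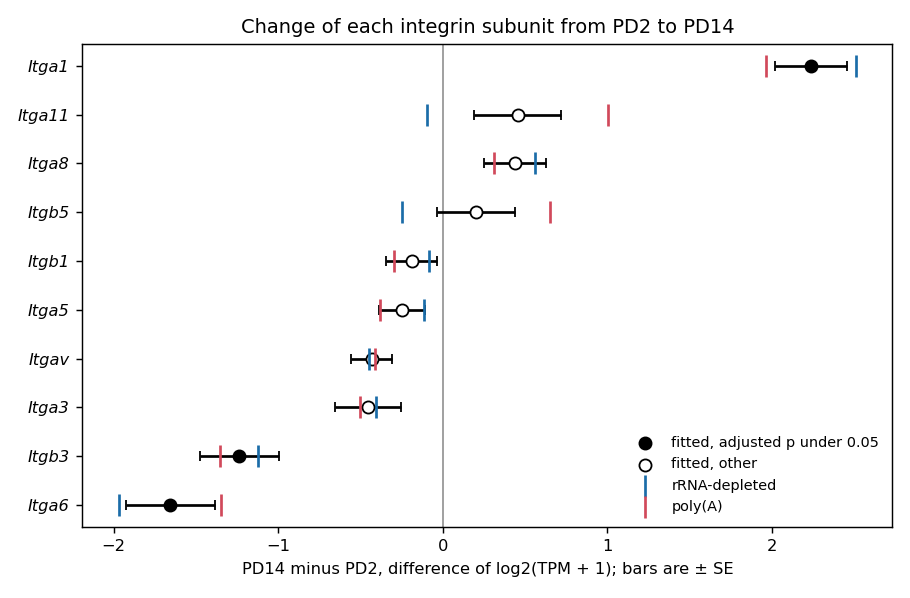
Difference of log2(TPM + 1) between PD14 and PD2 (horizontal axis) for each of the 10 integrin subunits (rows). Circles are the fitted values with bars of ± 1 SE, filled where the limma adjusted p was under 0.05, and ticks are the single differences within the rRNA-depleted and poly(A) libraries; Itga1 stands at 2.24, Itgb3 at -1.24 and Itga6 at -1.66, while the ticks of Itga11 and Itgb5 lie on both sides of 0.

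The steps were then read apart. From PD2 to PD8 the fitted log2 changes of Itga1, Itga6 and Itgb3 were 1.56 ± 0.22, -1.23 ± 0.27 and -1.07 ± 0.24. From PD8 to PD14 they were 0.68 ± 0.22, -0.43 ± 0.27 and -0.17 ± 0.24. In limma, 0 of the 10 genes passed in either step. At an unadjusted p under 0.05 there were 3 in the early step and 1 in the late step, beside 20.3% and 5.6% of all genes tested. Of all genes, 0.0225% passed after adjustment in the early step and 0 did in the late step. Without either PD2 library Itga1 passed in the early step (1.24 without the rRNA-depleted, 1.88 without the poly(A) library). The difference of the late from the early step did not pass for any of the 10 (limma adjusted p = 0.9996 for each), and 0 had an unadjusted p under 0.05. Of all genes tested, 0 passed and 4.25% had an unadjusted p under 0.05. The comparisons share the PD8 libraries, so the values of both steps are not independent.

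The SDs and ranges given next are taken over the rRNA-depleted and the poly(A) library of each group. They therefore include the difference between the methods. In level, Itgb1 was the highest of the 10 in all 3 groups, at 1388 ± 333 TPM (SD, n = 2) at PD2, 1488 ± 388 at PD8 and 1205 ± 169 at PD14. Itgb5 came next, at 214 ± 8.33, 248 ± 80.2 and 256 ± 101 TPM, although at PD2 its range overlapped that of Itga5, which was the higher with poly(A) enrichment. Itga5, Itgav and Itga11 followed, and the ranges of neighbours among them overlapped except for Itga5 and Itgav at PD8 and Itgav and Itga11 at PD2. By the mean of both methods Itga1 was the lowest of the 10 at PD2 (12.0 ± 4.61 TPM). There its range overlapped that of Itga3, and Itgb3 was lower with rRNA depletion. Itga1 was the sixth at PD8 (41.0 ± 28.3) and PD14 (64.1 ± 38.5), where it overlapped its neighbour Itga8. At PD14 the range of Itga1 also overlapped those of Itgav and Itga11, which had higher means. Itga6 went from the seventh place (24.6 ± 9.20 TPM) to the ninth (9.60 ± 0.78 and 6.87 ± 0.49). At PD8 and PD14 it overlapped Itgb3 (8.31 ± 6.18 and 6.60 ± 2.93), the lowest there.

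The summed level of the 7 alpha subunits differed little between doublings, while its makeup differed more. Their sums at PD2, PD8 and PD14 were 491, 523 and 488 TPM with rRNA depletion, and 446, 468 and 458 TPM with poly(A) enrichment. The collagen receptor subunits Itga1 and Itga11 held 20.9%, 31.7% and 35.4% of this sum with rRNA depletion and 17.2%, 30.5% and 38.0% with poly(A) enrichment. The share was lowest at PD2 and highest at PD14 in both methods. The laminin receptor subunits Itga3 and Itga6 held 10.3%, 4.84% and 4.42% with rRNA depletion and 6.37%, 4.52% and 2.94% with poly(A) enrichment. The RGD-binding subunits Itga5, Itga8 and Itgav held 68.9%, 63.5% and 60.1%, and 76.4%, 65.0% and 59.0%. Both of these shares were highest at PD2 and lowest at PD14 in each method. With rRNA depletion Itga1 alone held 3.10% at PD2 and 18.7% at PD14, and Itga11 17.8% and 16.7%. With poly(A) enrichment both shares were higher at PD14, with Itga1 at 1.95% and 8.06% and Itga11 at 15.3% and 30.0%. These shares are of transcripts and were grouped after the values were seen, so no test was made. Of the beta sum, Itgb1 held 79.8% to 87.5% over the 6 libraries, Itgb5 11.2% to 19.7% and Itgb3 0.279% to 1.28%.

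**Figure D3:**
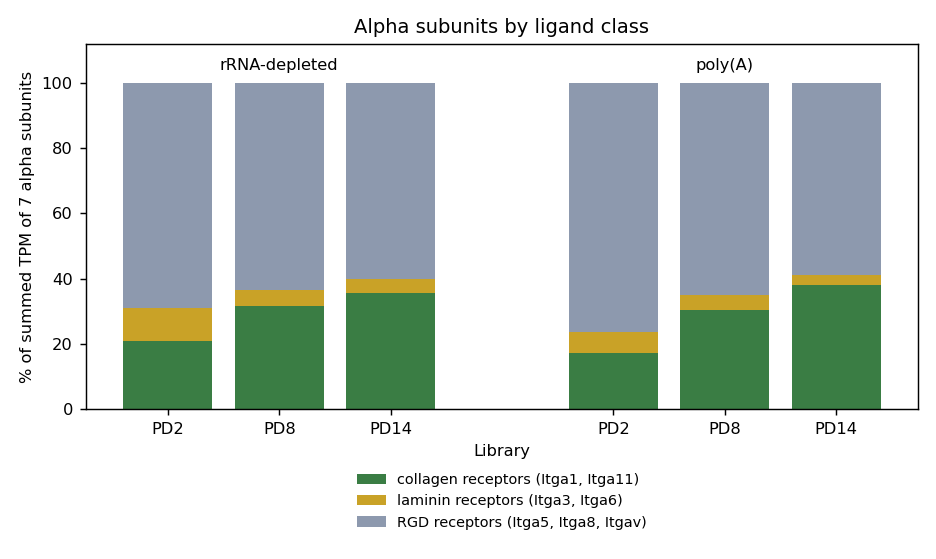
Percent of the summed TPM of the 7 alpha subunits (vertical axis) held by collagen, laminin and RGD receptor subunits in each of the 6 libraries (bars, by library method and population doubling). The collagen part was larger at PD14 than at PD2, going from 20.9% to 35.4% with rRNA depletion and from 17.2% to 38.0% with poly(A) enrichment.

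The 10 genes held 89.3% to 93.6% of the summed TPM of all alpha subunits in the table and 98.0% to 99.5% of that of all beta subunits. Of 17 other subunits, 12 were tested, and 1 fell, beside 4.77% of all genes tested: Itga4, whose protein alpha4 binds fibronectin and VCAM-1. With rRNA depletion its levels at the 3 doublings were 8.35, 1.46 and 1.33 TPM, and with poly(A) enrichment they were 19.1, 10.4 and 5.58 TPM, and its fitted PD14 change was -1.81 ± 0.32 (limma adjusted p = 0.0345). The laminin receptor gene Itga7, typical of muscle, was at -1.16 (limma adjusted p = 0.0720) and Itga9, a tenascin receptor gene, at 0.88 (limma adjusted p = 0.0744). Itgb8, a partner of alphaV, was at -0.46 with 4.69 to 22.5 TPM. The collagen receptor genes Itga2 and Itga10 were at 0.45 and 0.07 and reached at most 3.76 and 3.98 TPM. The platelet subunit gene Itga2b was at 0.02, the epithelial Itgb4 at 0.39 and the leukocyte subunit genes Itgal, Itgam, Itgb2 and Itgb7 at 0.43, -0.56, 0.04 and -0.93. None of these 11 passed, with limma adjusted p from 0.0720 to 0.963. The 12 had a median of 0.03.

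The genes that act on integrins inside the cell and beside them in the membrane were read against the 11.2% of all genes tested that passed. Of 13 tested regulators of integrin activation, 1 fell and 0 rose, with a median of -0.14. It was Fermt2, which encodes kindlin-2, the kindlin of fibroblasts that binds beta tails. Its levels over the 3 doublings were 158, 138 and 103 TPM with rRNA depletion, against 284, 181 and 156 TPM with poly(A) enrichment, and its fitted change was -0.74 ± 0.15 (limma adjusted p = 0.0421). Flna, the actin crosslinker filamin A that competes with talin for beta tails, was at -0.51 ± 0.18 (limma adjusted p = 0.121). Of 18 focal adhesion genes 1 rose and 0 fell, with a median of -0.19. Tns2, a tensin, rose by 0.68 ± 0.13 (limma adjusted p = 0.0383), and Parva, which encodes alpha-parvin, was at 0.70 ± 0.32 (limma adjusted p = 0.208). Of 8 associated membrane proteins 0 passed in limma, with a median of 0.23, and the urokinase receptor gene Plaur (-1.32 ± 0.29) and caveolin gene Cav1 (0.59 ± 0.26) had the largest values (limma adjusted p = 0.0505 and 0.186).

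The ligand genes were read by the receptor class they belong to, again beside the 11.2% of all genes tested that passed. Of all genes, 6.41% passed as higher and 4.77% as lower. Of 9 tested collagen genes 1 rose and 0 fell, with a median of 0.29. Col3a1, a fibrillar collagen, rose by 1.35 ± 0.19 (limma adjusted p = 0.0244): PD2 and PD14 were at 2018 and 5681 TPM with rRNA depletion and at 1045 and 2422 TPM with poly(A) enrichment. Col6a1, of the beaded-filament collagen VI, was at 0.60 ± 0.14 (limma adjusted p = 0.0540). Of 9 laminin chain genes Lama4 (0.68 ± 0.11) and Lamb2 (1.03 ± 0.19) rose and Lama1, the alpha chain of the early embryonic laminin, fell (-1.26 ± 0.23), with limma adjusted p = 0.0307, 0.0350 and 0.0364 and a list median of 0.09. Of 12 RGD and related ligand genes 0 passed in limma, with a median of 0.05. Their largest values were those of Edil3 (1.47 ± 0.39, limma adjusted p = 0.0729) and Postn, periostin, an alphaV ligand (1.26 ± 0.45, limma adjusted p = 0.127). Vitronectin, Vtn, was below the filter, at 0 TPM in 5 libraries and 0.0490 in the other.

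**Figure D4:**
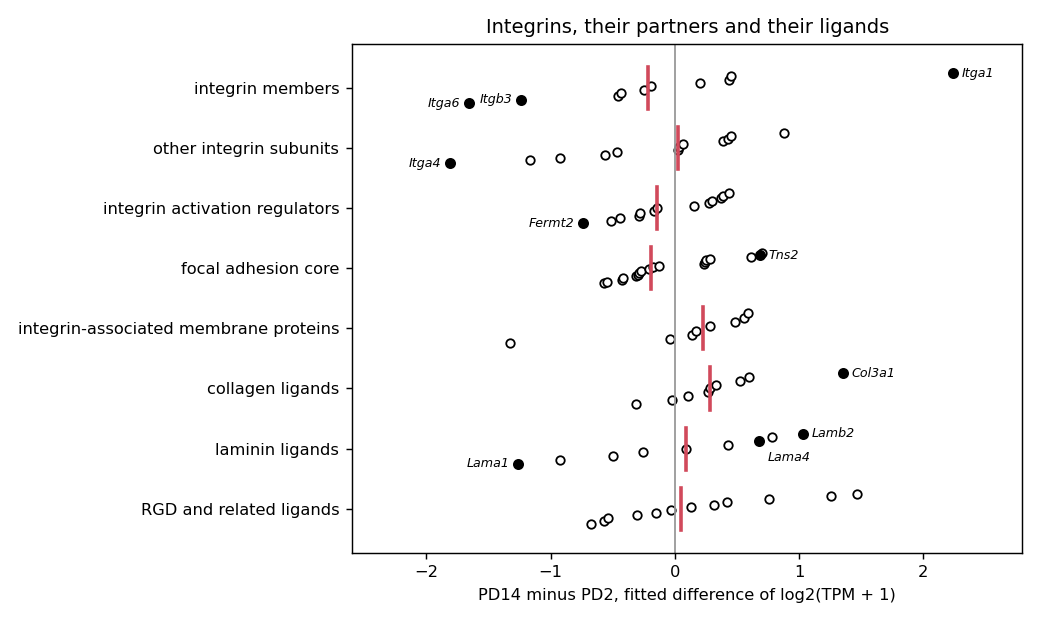
Fitted difference of log2(TPM + 1) between PD14 and PD2 (horizontal axis) for the tested genes of 8 lists (rows), with 1 circle per gene, filled and named where the limma adjusted p was under 0.05, and a vertical bar at each list's median. The integrin genes run from -1.66 to 2.24 and their median is -0.22, and the medians of the other lists lie between -0.19 and 0.29.

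By the smallest root-mean-square difference of log2(TPM + 1) over the 6 libraries, after centring on each method, the genes most like Itga1 were Psd4 (0.08), Nmnat2 (0.11) and Glt8d2 (0.13). Psd4 encodes an exchange factor for ARF6, Nmnat2 an NAD-synthesizing enzyme and Glt8d2 a glycosyltransferase. They were picked for this pattern, so their own values are no further result. Psd4 was at 1.34, 8.03 and 14.0 TPM with rRNA depletion and at 0.232, 1.79 and 3.27 TPM with poly(A) enrichment.

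Markers of other cells were read beside these results, since in bulk RNA fewer cells of a type and less RNA per cell cannot be told apart. The fibroblast label was checked on 10 markers, all of them tested, whose summed level was 9462 to 13066 TPM at PD2, 11979 to 16997 at PD8 and 10696 to 17845 at PD14. Of these, Dcn (1.72), Lum (1.92) and Twist1 (0.73) rose from PD2 to PD14 and 0 fell (limma adjusted p = 0.0183, 0.0244 and 0.0276). Of all genes tested, 6.41% passed as higher and 4.77% as lower. In all, 8 fitted changes were positive and 2 negative, those of Thy1 (-0.70, limma adjusted p = 0.241) and Prrx1 (-0.04, 0.843). At PD2 and PD14 Thy1 stood at 322 and 116 TPM with rRNA depletion and at 931 and 972 TPM with poly(A) enrichment.

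Markers of epithelium, endothelium and skeletal muscle had lower sums at PD14 in both methods, as Itga6, Itgb3 and Itga4 did. The 8 epithelial markers summed to 9.86 to 14.4 TPM at PD2 and 0.992 to 2.03 at PD14. Of the 3 tested, the keratin gene Krt18 fell by 2.42 (limma adjusted p = 0.0214), and its partner Krt8 was at 0 in both PD14 libraries. The 8 endothelial markers summed to 24.1 and 17.2 TPM at PD2 and PD14 with rRNA depletion and to 15.7 and 5.10 TPM with poly(A) enrichment. Of the 4 tested, Kdr, which encodes a VEGF receptor, fell by 1.38 (limma adjusted p = 0.0330). Its PD2 and PD14 levels were 4.05 and 0.845 TPM with rRNA depletion, and 6.65 and 2.10 TPM with poly(A) enrichment. Erg was at -1.09 and Emcn at -0.94 (limma adjusted p = 0.135 and 0.0909), and Tek at 0.33 (limma adjusted p = 0.582). The junction and receptor genes Tie1 and Cldn5 were at 0 in all 6 libraries, Cdh5 was at most 0.182 TPM and Pecam1 at most 0.386 TPM. The 8 skeletal muscle markers, Itga7 among them, summed to 30.0 to 70.7 TPM at PD2 and 10.5 to 16.6 at PD14, with Myf5 at 0 throughout. Of the 4 tested, the contractile genes Acta1 (-1.79), Myh3 (-1.32) and Tnnt3 (-1.27) fell, with limma adjusted p = 0.0253, 0.0444 and 0.0436, and Itga7 did not pass.

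Sums of blood cell markers differed between the library methods at PD14. The 10 macrophage and leukocyte markers, Itgam and Itgb2 among them, summed to 40.0 TPM at PD2 and 19.0 at PD14 with rRNA depletion, but to 58.8 and 119 TPM with poly(A) enrichment, with Cd3e at 0 throughout. The median difference of the 9 tested was -0.84 in the former and 0.62 in the latter, and 0 passed in limma. The 6 platelet markers, Itga2b among them, summed to 18.0 and 20.5 TPM with rRNA depletion and to 15.1 and 57.7 TPM with poly(A) enrichment. The higher poly(A) sum at PD14 came mostly from Ppbp, at 2.56 TPM at PD2, 65.6 at PD8 and 35.7 at PD14, and also from Gp1bb. The other markers did not rise from PD2 to PD14 with poly(A) enrichment: Pf4 was at 2.57 and 0.97 TPM and Itga2b at 4.52 and 4.27 TPM. Gp6 and Gp9 were at 0 in the PD2 and PD14 poly(A) libraries. The 10 smooth muscle and pericyte markers also had lower sums at PD14 than at PD2 in both methods. They summed to 3184 and 1368 TPM at PD2 and PD14 with rRNA depletion and to 9543 and 4633 TPM with poly(A) enrichment. Of the 9 tested, 6 had negative and 3 had positive fitted changes. Acta2 (-1.25), Tagln (-1.09) and Cspg4 (-1.34) did not pass (limma adjusted p = 0.0562, 0.0643 and 0.125). In that list Notch3 rose by 1.67 and Des fell by 3.98 (limma adjusted p = 0.0217 and 0.0134). The part of such cells in the integrin results was not tested.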

How the data were processed

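RNA was measured in 6 libraries, 2 at each of 3 population doublings, in mouse fibroblasts. The authors deposited TPM per gene symbol; the unit is taken from the name of the deposited table and its column sums, which were 1000000 in the poly(A) and 937217 to 950531 in the rRNA-depleted libraries. The submitters' processing notes name bcl2fastq, cutadapt 1.14, HISAT2 2.0.5, StringTie 1.3.1c and mm10, without roles; the annotation used is not given in the sources used here. Since TPM hold no read numbers, the depth and the counting error are unknown.

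Values were analysed as log2(TPM + 1) with limma 3.58.1 in R 4.3.3, with a term per group, library method as an additive block and a mean-variance trend (2 residual and 3.22 prior degrees of freedom). Genes with at least 1 TPM in at least 2 libraries were tested. The replicate number is the library method by the labels, and libraries with the same number deviated together from their group means (r = 0.664 to 0.854 across genes). The fit was checked on simulated data. The 10 genes, the lists and tests were chosen with earlier results of these data known. All 10 genes and every tested integrin subunit are named; of each other list, genes past the threshold in PD14 against PD2 (at most 4) and the 2 with the largest change. Cell type markers are named as needed. Alternatives were the pseudocount, the filter, scaling, the block, the variance trend and leaving out each library. Positions are from GENCODE M21 (mm10), promoters from RefSeq. Figures were drawn with matplotlib 3.10.9.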

Additional observations from a re-analysis of the deposited data

How the results depend on the processing

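The number of genes past the threshold in PD14 against PD2 was 1490 (854 higher, 636 lower; 736 and 834 under quantile normalization), 404 with no filter on low TPM, 938 with no mean-variance trend and 0 with no replicate block; the integrin genes past it were 3, but 1 with no filter and 0 with no block. With each library left out in turn these counts ran from 0 to 1793 and from 0 to 3, and such fits had 1 residual degree of freedom in place of 2. Without the PD14 rRNA-depleted library 0 genes passed, without the PD14 poly(A) library 5, and without the PD8 libraries 25 (rRNA-depleted) and 20 (poly(A)). In PD8 against PD2, 3 genes passed, 21 with a pseudocount of 0.1, 17 with 0.5, and 0 with no filter, quantile normalization, no block or no variance trend; with a library left out the counts ran from 0 to 626, and the integrin genes from 0 to 1. In PD14 against PD8 they ran from 0 to 1 gene and in the difference of the steps from 0 to 3. The F test called 195 genes and 1 integrin gene, and 0 of each with no filter, no block or no variance trend; with a library left out it called 0 to 899 genes and 0 to 2 integrin genes. The F test call of Itga1 was therefore lost under these settings; its fitted PD14 change stayed between 1.92 and 2.56 over left-out libraries (limma adjusted p up to 0.0795 there, and 0.335 with no block), that of Itga6 between -2.04 and -1.28 (up to 0.103, and 0.243) and that of Itgb3 between -1.46 and -1.01 (up to 0.137, and 0.561). Signs turned only when a library was left out, and only for changes that did not pass. The values ran from -0.21 to 0.61 for Itgb5 in PD14 against PD2. In PD8 against PD2 they ran from -0.26 to 0.11 for Itga3, -0.19 to 0.14 for Itga5, -0.079 to 0.39 for Itga8 and -0.24 to 0.58 for Itgb5. In PD14 against PD8 they ran from -0.49 to 0.32 for Itga11, -0.44 to 0.11 for Itgb3 and -0.24 to 0.29 for Itgb5. For the difference of the steps they ran from -0.68 to 0.064 for Itga3, -0.46 to 0.060 for Itga5, -0.33 to 0.59 for Itga8, -0.33 to 0.14 for Itgav and -0.56 to 0.27 for Itgb5. Over all 18 alpha subunits, an alternative added after the data were seen, the mean collagen share at PD8 was 29.1% (31.1% over the 7), the laminin share at PD8 7.05% (4.68%), and the RGD share 66.9%, 60.2% and 56.3% at PD2, PD8 and PD14 (72.6%, 64.2% and 59.6%); the order of the groups was the same. The causes of these differences between settings were not tested. Depth is unknown, so values of a few TPM have no counting error here.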

Other observations

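Itgbl1, whose secreted product resembles a beta subunit but is not part of a receptor, lay outside the lists and was looked at after its values were seen. At PD2, PD8 and PD14 it stood at 56.1, 59.0 and 95.6 TPM with rRNA depletion and at 21.3, 40.9 and 39.0 TPM with poly(A) enrichment. PD14 was 1.70 and 1.83 times PD2 in the respective methods, and the fitted log2 change of 0.80 ± 0.24 did not pass (limma adjusted p = 0.0892).

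The rRNA-depleted and poly(A) libraries differed for single integrin genes by more than several of the passage changes. Method and replicate number coincide, so a difference of culture or batch between replicates cannot be told apart from one of method. The mean difference of log2(TPM + 1), poly(A) minus rRNA-depleted, was -1.17 for Itga1, -0.78 for Itga3, -0.77 for Itgav and -0.58 for Itga8, and 1.10 for Itgb3, 0.53 for Itga5, 0.47 for Itgb5 and 0.44 for Itgb1. The ratio of Itga5 to Itgav TPM was 0.729, 1.01 and 0.921 over the 3 doublings by rRNA depletion and 2.25, 1.99 and 2.31 by poly(A) enrichment, so which of these fibronectin-binding subunits was the more abundant transcript went with the method in PD2 and PD14, and Itga5 was the higher at PD8 in both.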
